A study of Mus musculus with 2 samples.

Results

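T cells in spleen cells enriched for CD11c were chosen by measured counts, as the cells with at least 2 UMIs (unique molecular identifiers, each counted as 1 captured RNA molecule) of Cd3e and at least 2 of Trac plus Trbc2. They also had to hold under 3 UMIs of Cd79a, none of Clec9a, under 2 of Siglech and under 3 of C1qb. By this gate 202 of 6393 cells were T cells, 38 of 3308 in replicate 1 and 164 of 3085 in replicate 2. Both samples were wild-type mice on the C57BL/6J background, adult and of both sexes per the study's methods, with no treatment or infection, so no condition was compared. Splenic cells were enriched with magnetic beads against CD11c, labelled with sample tags and captured on the BD Rhapsody system in the same run. The sources used here do not say how many mice each sample pooled, so p-values measure the spread between these 2 samples only. The fraction is a limited model of splenic T cells, since a T cell was present only if it was carried through a bead enrichment for another surface protein.

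T cells recognise antigen through a receptor of alpha and beta or gamma and delta chains, held at the surface by the CD3 proteins that pass the signal on to the kinase Lck and the adaptor Lat. CD4 and CD8 are the coreceptors of helper and cytotoxic lineages, with CD8 made of an alpha and a beta chain. Naive T cells keep the transcription factors Tcf7 and Lef1 and the homing genes Ccr7 and S1pr1, while memory and effector cells gain genes of cytotoxicity, chemokines and tissue homing. In the spleen T cells gather around the central arterioles, where dendritic cells, which carry CD11c, present antigen to them.

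Cd3d and Cd3g, which encode the delta and gamma chains of CD3, lie head to head on chromosome 9 and were not used by the gate. The promoters of both, from 250 bases before to 50 after the start of the gene, are shown because the paired genes were high in T cells and near 0 in B cells. The B cell gate took only cells without a Cd3e UMI, so the low level there follows in part from the gate. That of Lat, the adaptor that links the receptor to later signalling, is shown because it was among the 8 genes with the largest difference from all other cells. Sequences are from RefSeq on GRCm38.p6, Cd3g at chr9:44980382-44980681 on the reverse strand, Cd3d at chr9:44981536-44981835 on the forward strand and Lat at chr7:126369519-126369818 on the reverse strand, written 5′ to 3′ with motif matches in capitals.
Cd3g: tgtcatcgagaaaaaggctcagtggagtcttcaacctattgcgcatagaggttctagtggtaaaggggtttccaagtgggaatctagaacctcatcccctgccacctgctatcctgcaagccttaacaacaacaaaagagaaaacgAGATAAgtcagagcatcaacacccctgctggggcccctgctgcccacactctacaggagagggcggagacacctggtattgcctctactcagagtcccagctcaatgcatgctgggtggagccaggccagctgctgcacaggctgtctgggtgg
Cd3d: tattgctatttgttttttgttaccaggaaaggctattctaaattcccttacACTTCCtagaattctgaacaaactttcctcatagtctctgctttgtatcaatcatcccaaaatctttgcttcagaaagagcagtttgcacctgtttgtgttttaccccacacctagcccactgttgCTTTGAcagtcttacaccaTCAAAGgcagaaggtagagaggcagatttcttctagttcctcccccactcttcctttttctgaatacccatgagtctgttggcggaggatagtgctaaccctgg
Lat: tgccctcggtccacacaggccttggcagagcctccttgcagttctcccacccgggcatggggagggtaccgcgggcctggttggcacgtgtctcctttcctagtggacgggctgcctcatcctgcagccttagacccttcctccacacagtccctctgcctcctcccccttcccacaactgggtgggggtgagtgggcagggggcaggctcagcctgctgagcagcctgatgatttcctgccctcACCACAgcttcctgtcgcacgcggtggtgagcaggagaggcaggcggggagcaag
Of 4 short motifs searched on both strands, the Cd3g promoter held AGATAA, a motif of GATA3 and its relatives, 1 time. The Cd3d promoter held GGAAGT, a motif of the ETS family, 1 time and CTTTGA, a motif of TCF7 and LEF1, 2 times. The Lat promoter held TGTGGT, a motif of the RUNX family, 1 time. Among 32851 mouse promoters of the same length 11.2% held the first motif, 23.8% the ETS motif, 16.0% the TCF7 motif and 16.8% the RUNX motif, and the searched letters of different motifs do not overlap here. These matches describe the letters of the window only.

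T cells were 1.15% of cells in replicate 1 (38 of 3308, exact binomial 95% interval 0.814 to 1.57) and 5.32% in replicate 2 (164 of 3085, 4.55 to 6.17). The intervals, which cover counting error only, did not overlap, so the fraction held T cells in unequal shares in the 2 samples. B cells, gated by at least 3 Cd79a UMIs and at least 1 of Ms4a1, moved the same way, from 1.87% (62 cells) to 5.38% (166 cells). NK cells, gated by at least 1 UMI each of Ncr1 and Klrb1c, were 0.726% (24 cells) and 0.843% (26 cells). Both gates also required no UMI of Cd3e or Clec9a, under 2 of Siglech and under 3 of C1qb, and the NK gate under 3 of Cd79a. Low levels of receptor genes in B and NK cells therefore follow in part from the gates. The cause of the unequal lymphocyte shares was not tested. The tables shared 0 cell indices.

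The median T cell held 5817.5 UMIs of 2103.5 genes in replicate 1, and 6366 UMIs of 2203.5 genes in replicate 2. All other cells were deeper, with medians of 11971.5 and 11630 UMIs, whereas B cells held 7617 and 6834. The share of UMIs from mitochondrial genes was 8.63% and 8.70% in T cells, 8.70% and 8.26% in B cells, and 5.50% and 5.42% in all other cells. Summed over cells, T cells gave 273206 UMIs in replicate 1 and 1243864 in replicate 2, and levels below are UMIs per 1e+06 UMIs of such a sum (CPM). The deepest T cell of replicate 1, with 33935 UMIs, gave 12.4% of that replicate's sum. With each cell thinned to 3000 UMIs before summing, which no T cell was too shallow for, the comparisons below were repeated.

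The values that chose the cells are given as a description. Cd3e UMIs per T cell ran from 2 to 32 with a median of 5 in replicate 1 and from 2 to 37 with a median of 6.5 in replicate 2. Trac plus Trbc2, the constant regions of the alpha and beta chains, had medians of 22.5 and 23 UMIs. Just inside the limit, 5 and 10 cells held 2 Cd3e UMIs, and Lef1 was found in 4 and 8 of them. Just outside it, 2 and 10 cells held 1 Cd3e UMI and met every other limit, and Lef1 was found in 2 and 8 of these. A further 11 and 25 cells met the Cd3e and receptor limits and were removed by the limits on Cd79a, Clec9a, Siglech or C1qb, and they stand among all other cells below.

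Of the 5 T cell markers Cd3e, Trac and Trbc2 chose the cells, so Il7r and Lef1 are given beside the label as a description. Il7r, the receptor for the survival cytokine IL-7, was at 1010.2 CPM in replicate 1 and 999 in replicate 2, with a UMI in 76.3% and 79.9% of T cells. In B cells Il7r was at 1.73 and 3.76 CPM, and in NK cells at 217 and 196. Lef1, a transcription factor of naive T cells, was at 666 and 490.4 CPM in T cells against 15.6 and 18.8 in B cells and 22.1 and 54.4 in NK cells.

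Levels of genes of other cell types in T cells differed by list. The 13 dendritic cell genes, led by MHC class II, Cd74 and Cst3, took 0.180% and 0.276% of T cell UMIs against 1.97% and 1.99% in B cells, 0.410% and 0.339% in NK cells and 5.03% and 5.39% in all other cells. Of these, 3 were at 0 in T cells of replicate 1 and 1 in replicate 2, where Clec9a is at 0 by the gate. The 9 B cell genes took 0.0392% and 0.0312% of T cell UMIs, where the gate itself limits Cd79a, and 6.25% and 2.47% of B cell UMIs. The median B cell held 2.54% and 2.46% of its UMIs in this list, so a minority of B cells raised the sum of replicate 1. In T cells Pax5, the B lineage factor among these genes, was at 0 in both replicates. Most of the T cell share was Ighm, the IgM heavy chain, at 355 and 272 CPM in T cells, 159 and 212 in NK cells and 16535 and 4249 in B cells. The 7 macrophage genes, with C1qb limited by the gate, took 0.00659% and 0.00691% of T cell UMIs against 0.462% and 0.252% in all other cells. Summed, the 7 NK cell genes stood higher in T cells, at 0.0220% and 0.0494%, than in all other cells, at 0.00599% and 0.00683%, and below NK cells, at 0.896% and 0.973%. A minority of T cells gave the T cell sum, as the median T cell of both replicates held 0% of its UMIs in this list. Of these 7 genes Eomes, Klre1 and Gzma, were called higher in T cells than in all other cells and Klra8 lower. The part of free RNA or of captured fragments in these values was not tested. As a description, 0 T cells of replicate 1 and 4 of replicate 2 held over 1% of their UMIs in 5 antigen presentation genes (H2-Aa, H2-Ab1, H2-Eb1, Cd74 and Cst3). Scrublet called 0 and 3 T cells as doublets. The gate had already removed cells by its limits on Cd79a, Clec9a, Siglech and C1qb, so both counts follow in part from the gate.

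**Figure D1:**
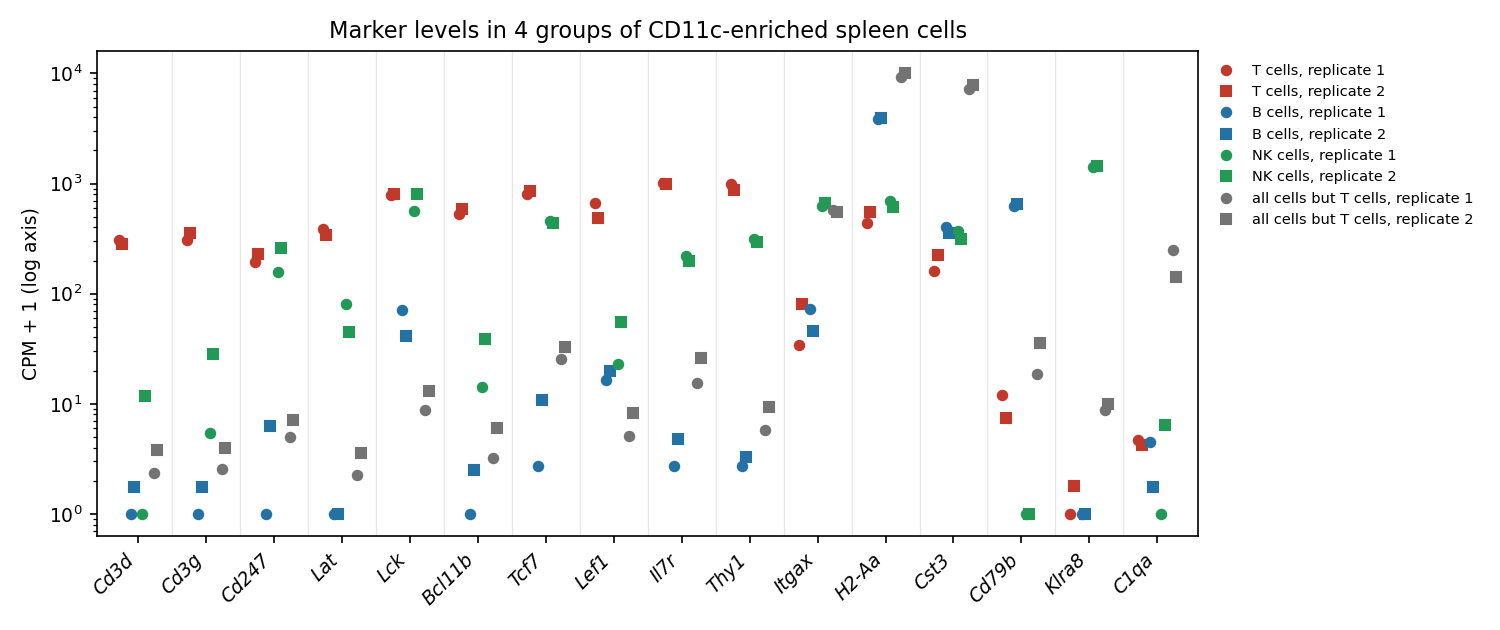
Summed level of 16 genes (CPM + 1, log axis) in T cells, B cells, NK cells and all cells but T cells, with 1 point per replicate. Receptor, signalling and naive genes were high in T cells, Itgax was near the B cell level and far below NK cells, and Cd79b, Klra8 and C1qa were low.

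Itgax, which encodes the CD11c protein that the beads bind, was low in T cells. Its level was 32.9 CPM in replicate 1 and 78.8 in replicate 2, with a UMI in 4 of 38 and 31 of 164 T cells. All other cells held 577 and 550.1 CPM and NK cells 620.0 and 663, so neither group overlapped with T cells. Against all other cells the log2 difference was -3.24 (SE 0.27, adjusted p = 0.000472), and against NK cells it was -3.20 (SE 0.34, adjusted p = 0.000158). B cells, at 71.0 and 44.4 CPM with a UMI in 14 of 62 and 27 of 166 cells, overlapped with T cells. The log2 difference of T from B cells was 0.17 (SE 0.39, adjusted p = 0.860). Without the 4 T cells that held over 1% antigen presentation UMIs this difference was -0.21. The RNA level does not give the amount of CD11c protein on these cells.

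Against all other cells, whose sums held the dendritic cell and macrophage gene Cst3 at 7236 and 7790.2 CPM, T cells were higher in receptor, signalling and naive genes and lower in antigen presentation and early response genes. Of 14486 genes tested, with the 7 gate genes left out, 3935 (27.2%) passed an adjusted p of 0.05 by edgeR's quasi-likelihood test, 1551 (10.7%) higher and 2384 (16.5%) lower in T cells. The median log2 difference of all genes tested was -0.15. In bulk sums like these, fewer cells that use a gene and less RNA per cell cannot be told apart.

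The receptor complex was higher in T cells. Cd3d was at 307 and 284 CPM in T cells and 1.37 and 2.82 in all other cells, a log2 difference of 6.96 (SE 0.33, adjusted p = 0.000103). Cd3g, its neighbour, was at 304 and 357 CPM against 1.56 and 2.96, a log2 difference of 7.06 (SE 0.32). Cd247, the zeta chain that carries the signal inward, was at 194 and 229 CPM against 3.98 and 6.11, a difference of 5.26 (SE 0.26). Trbc1, a near-identical copy of the gate gene Trbc2 whose reads cannot be assigned with certainty, was at 406 and 304 CPM against 3.56 and 4.27. All 4 tested members of the complex rose.

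Of the signalling genes of the receptor 19 of 20 were called higher and 0 lower, beside 10.7% and 16.5% of all genes tested. Their median log2 difference was 6.15. Lat was at 388 and 342 CPM in T cells and 1.26 and 2.55 in all other cells, a difference of 7.39 (SE 0.32, adjusted p = 8.71e-05). Lck, the kinase bound to the coreceptors, was at 791 and 805 CPM against 7.71 and 12.1. Zap70, the kinase recruited to the phosphorylated zeta chain, was at 121 and 136 CPM against 1.01 and 2.05. The member that did not pass was Lcp2, an adaptor also used by myeloid cells, at 216 and 314 CPM against 237 and 190.1.

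Transcription factors of the T lineage were higher for 9 of 12 and lower for 1, beside 10.7% and 16.5% of all genes tested. Bcl11b, which holds T cell identity, was at 523 and 584 CPM against 2.23 and 5.04, a log2 difference of 7.10 (SE 0.39, adjusted p = 0.000136). Gata3 was at 128 and 137 CPM against 1.56 and 2.15, and Tox at 231 and 195 against 7.11 and 6.25. Runx3, used by CD8 T cells and by dendritic cells, was lower in T cells at 154 and 167 CPM against 230.0 and 251. Runx1 did not pass, at 311 and 213 CPM against 216 and 210.5.

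Naive genes were higher for 12 of 14 and lower for 0, beside 10.7% and 16.5% of all genes tested. Their median log2 difference was 3.76. Tcf7 was at 809 and 860.2 CPM against 24.4 and 32.0, a difference of 4.71 (SE 0.19, adjusted p = 8.71e-05). S1pr1, the receptor that lets lymphocytes leave along sphingosine phosphate, was at 289 and 310.3 CPM against 8.18 and 18.9. Klf2, which drives S1pr1, was at 369.7 and 424 CPM against 132 and 144. Ccr7, which mature dendritic cells also use, was at 150.1 and 121 CPM against 59.5 and 111 and did not pass (0.44, SE 0.35, adjusted p = 0.381).

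Of 25 memory and effector genes tested, 17 were called higher and 4 lower, beside 10.7% and 16.5% of all genes tested. Ccl5, a chemokine of effector T cells, was at 933 and 1771 CPM against 287 and 344, a log2 difference of 1.96 (SE 0.31, adjusted p = 0.00506). A minority of T cells gave this sum, as Ccl5 was in 8 of 38 (21.1%) and 49 of 164 (29.9%) T cells against 42.6% and 44.0% of all other cells, which were deeper. Over the whole list the median T cell held 0.0829% and 0.192% of its UMIs, below the 0.237% and 0.228% of the median other cell. Nkg7, a cytotoxic granule gene, was at 176 and 309.5 CPM against 9.47 and 11.9. Gzmb, the protease granzyme B, was called but unequal between replicates, at 11.0 and 102 CPM against 3.21 and 3.87, with 3 and 127 UMIs behind the T cell values. Cd44 and S100a4 were lower in T cells, Cd44 at 124 and 199 CPM against 407 and 350.5.

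Cytokine receptors and ligands separated by gene. Of 15 receptors 10 were higher and 2 lower in T cells, beside 10.7% and 16.5% of all genes tested. Il2rb, which binds IL-2 and IL-15, was at 249 and 267 CPM against 8.72 and 11.9, and Il2rg, the chain common to IL-2 and IL-7 receptors, at 553 and 613 against 228 and 238. Ifngr1 was lower at 168 and 154 CPM against 489 and 458, and Il10ra at 32.9 and 66.7 against 205 and 205. Among the ligands 7 of 10 tested were higher and 0 lower. Ltb, lymphotoxin beta, was at 139 and 137 CPM against 55.6 and 55.6, a log2 difference of 1.14 (SE 0.13, adjusted p = 0.00153). Cd40lg, the helper signal to B and dendritic cells, was at 43.9 and 59.5 CPM against 0.193 and 0.668. Flt3l, the dendritic cell growth factor, was at 29.3 and 34.6 CPM against 9.45 and 9.57, a difference of 1.65 (SE 0.24, adjusted p = 0.00398).

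Adhesion and homing genes were higher for 9 of 20 and lower for 3, beside 10.7% and 16.5% of all genes tested. Itgb7 was at 304 and 338 CPM against 125 and 123, a log2 difference of 1.22 (SE 0.13, adjusted p = 0.00109), and Itgal, the alpha chain of LFA-1, at 227 and 341 against 134 and 136. Itga4, the alpha chain of the VCAM1 receptor VLA-4, was lower in T cells at 586 and 784 CPM against 1021 and 1024 (-0.72, SE 0.17, adjusted p = 0.0229). Its partner Itgb1 did not pass and was unequal between replicates, at 139 and 499 CPM against 359.6 and 354. Cxcr6, a receptor of tissue-homing T cells, was at 22.0 and 143 CPM in T cells against 0.578 and 0.931.

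Early response genes were lower for 5 of 7 and higher for 1, beside 16.5% and 10.7% of all genes tested. Fos was at 307 and 522 CPM in T cells against 1382 and 1767, a log2 difference of -2.02 (SE 0.26, adjusted p = 0.00253). Jun was at 205 and 242 CPM against 632 and 697, and Nr4a1, which receptor signals induce in T cells, at 91.5 and 296 against 668 and 894. Cd69, which also holds lymphocytes in tissue, went the other way at 121 and 157 CPM against 10.7 and 16.7. Junb did not pass.

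Among the 8 largest differences in each direction, with at least 50 CPM in the higher group, were Izumo1r, the folate receptor 4 of CD4 T cells, at 106 and 139.9 CPM against 0.300 and 0.716, Nsg2 at 286 and 213 against 1.11 and 1.84, and the long noncoding gene A630023P12Rik at 65.9 and 54.7 against 0.214 and 0.454. In the lower direction Tlr11 and Gcsam had 0 UMIs in T cells of both replicates. Tlr11, a receptor of dendritic cells for microbial profilin, was at 103 and 99.0 CPM in all other cells, at least 51.1-fold lower in T cells, and Gcsam at least 42.1-fold lower. These bounds take 3 UMIs over both replicates as the floor.

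The comparison with B cells set T cells against another lymphocyte of the same samples. As the B cell gate took only cells without a Cd3e UMI, low levels of receptor genes in B cells follow in part from the gate. Of 8586 genes tested 1371 (16.0%) passed, 671 (7.82%) higher and 700 (8.15%) lower in T cells, and DESeq2 called 812. Signalling genes of the receptor were again higher for 19 of 20 and lower for 0, with a median log2 difference of 5.41. Lat, Cd27, Cd6 and Cd96 had 0 UMIs in both B cell sums. Lat was at least 222-fold higher in T cells, Cd27, a costimulatory receptor, at least 96.3-fold, and Il18r1, the IL-18 receptor, at least 90.0-fold. Cd3d was at 0 and 0.752 CPM in B cells, and Bcl11b at 0 and 1.5.

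Naive genes divided T cells from B cells only in part, with 8 of 14 higher and 1 lower, beside 7.82% and 8.15% of all genes tested. Tcf7 was at 1.73 and 9.78 CPM in B cells, a log2 difference of 6.85 (SE 0.34, adjusted p = 1.05e-08). Klf2 (0.40, SE 0.20) and S1pr1 (-0.27, SE 0.19) did not pass. Foxp1 was lower in T cells at 629.6 and 486 CPM against 1339.5 and 1094. Ltb, at 137 and 114 CPM in B cells, did not pass (0.14, SE 0.25, adjusted p = 0.802).

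In the same contrast 9 of 18 homing genes were higher in T cells and 2 lower, beside 7.82% and 8.15% of all genes tested. Itgb7 was at 52.0 and 88.8 CPM in B cells, a log2 difference of 2.15 (SE 0.25, adjusted p = 3.45e-05). Ccr6 was lower in T cells at 3.66 and 14.5 CPM against 101 and 103, and Cxcr4 at 172 and 199 against 265 and 474. Cxcr5, the follicle receptor, was at 32.9 and 18.5 CPM in T cells against 225 and 284 in B cells. Btla, an inhibitory receptor, was also lower, at 146 and 136 CPM against 613 and 849. Itga4 did not pass (0.37, SE 0.19, adjusted p = 0.240). Pax5, Cr2 and Fcer2a, genes of mature B cells, had 0 UMIs in T cells.

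NK cells, 50 in all, are cytotoxic lymphocytes that share signalling proteins with T cells. Their gate, too, took only cells without a Cd3e UMI. Of 4984 genes tested 412 (8.27%) passed, 220 (4.41%) higher and 192 (3.85%) lower in T cells. Signalling genes were higher for 8 of 20 and lower for 1. Lck (0.37, SE 0.25, adjusted p = 0.490), Zap70 (0.21, SE 0.33) and Cd247 (0.20, SE 0.31) did not pass, and Cd247 was at 155 and 261 CPM in NK cells, overlapping with T cells. Trbc1 did not pass either, at 425 and 299 CPM in NK cells. In contrast Cd5, a brake on receptor signals, was at 194 and 248 CPM in T cells against 4.43 and 0 in NK cells, and Themis at 318 and 355 against 13.3 and 0.

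Naive genes rose against NK cells for 11 of 14 and fell for 0, and memory and effector genes fell for 11 of 24 and rose for 0. Of all genes tested 4.41% rose and 3.85% fell. Ccr7 was at 0 and 5.44 CPM in NK cells, a log2 difference of 5.76 (SE 0.76, adjusted p = 0.000659). Lef1 was at 22.1 and 54.4 CPM in NK cells and Il7r at 217 and 196. Ccl5 was lower in T cells than in NK cells, which held 5402 and 7526 CPM (-2.10, SE 0.28, adjusted p = 0.000659). Klrd1, an inhibitory receptor chain, was at 143 and 117 CPM in T cells against 819 and 989.8, and Il2rb at 249 and 267 against 1253 and 1534. Itga4 and Itgal were lower too, Itga4 against 2046 and 2083 CPM in NK cells (-1.44, SE 0.22, adjusted p = 0.00172). Klra8 and Klra4, NK receptors with near-identical copies in their family, held at most 3.66 CPM in T cells against 821 to 1441.

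Among the T cells, CD4 cells were those with at least 1 Cd4 UMI and none of Cd8a or Cd8b1, and CD8 cells those with at least 1 Cd8b1 UMI and none of Cd4. Cd8b1 was used because dendritic cells hold Cd8a, which was at 270.1 and 318 CPM in all other cells. CD4 cells were 20 of 38 (52.6%, 35.8 to 69.0) in replicate 1 and 66 of 164 (40.2%, 32.7 to 48.2) in replicate 2. CD8 cells were 11 (28.9%, 15.4 to 45.9) and 58 (35.4%, 28.1 to 43.2). The intervals of the replicates overlapped for both classes. A further 3 and 9 cells held both Cd4 and Cd8b1, 1 and 7 held Cd8a without Cd8b1 and without falling in the former class, and 3 and 24 held neither coreceptor. Some of the 7 cells with Cd8a in replicate 2 also held Cd4, at up to 9 UMIs, so more cells there held both coreceptors than the 9 with Cd8b1.

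The coreceptor counts stood above the background in B cells, whose gate took only cells without a Cd3e UMI. B cells, which should lack all 3 genes, held a Cd4 UMI in 8.06% and 4.22% of cells, a Cd8a UMI in 4.84% and 3.01% and a Cd8b1 UMI in 0 of 62 and 1 of 166 cells. The 7 CD4 lineage genes, Cd4 among them, took 0.0235% and 0.0240% of UMIs in all other cells. In B cells they took 0.00624% and 0.00647%, and in T cells 0.0754% and 0.0952%. A Cd4 background from the other cells was not tested. Cd4 UMIs per CD4 cell had a median of 5 in both replicates, and 4 of 20 and 3 of 66 cells rested on 1 UMI. Cd8b1 UMIs per CD8 cell had a median of 9 in both, with 0 and 3 cells at 1 UMI. With at least 2 Cd4 UMIs required, CD4 cells were 42.1% and 38.4%. With at least 2 UMIs of Cd8a plus Cd8b1 and none of Cd4, CD8 cells were 31.6% and 36.6%. This second limit also admits cells without Cd8b1, so it is not a stricter form of the first CD8 definition. Thinned to 3000 UMIs per cell under the first definitions, the shares were 55.3% and 36.6% for CD4 and 23.7% and 32.3% for CD8.

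**Figure D2:**
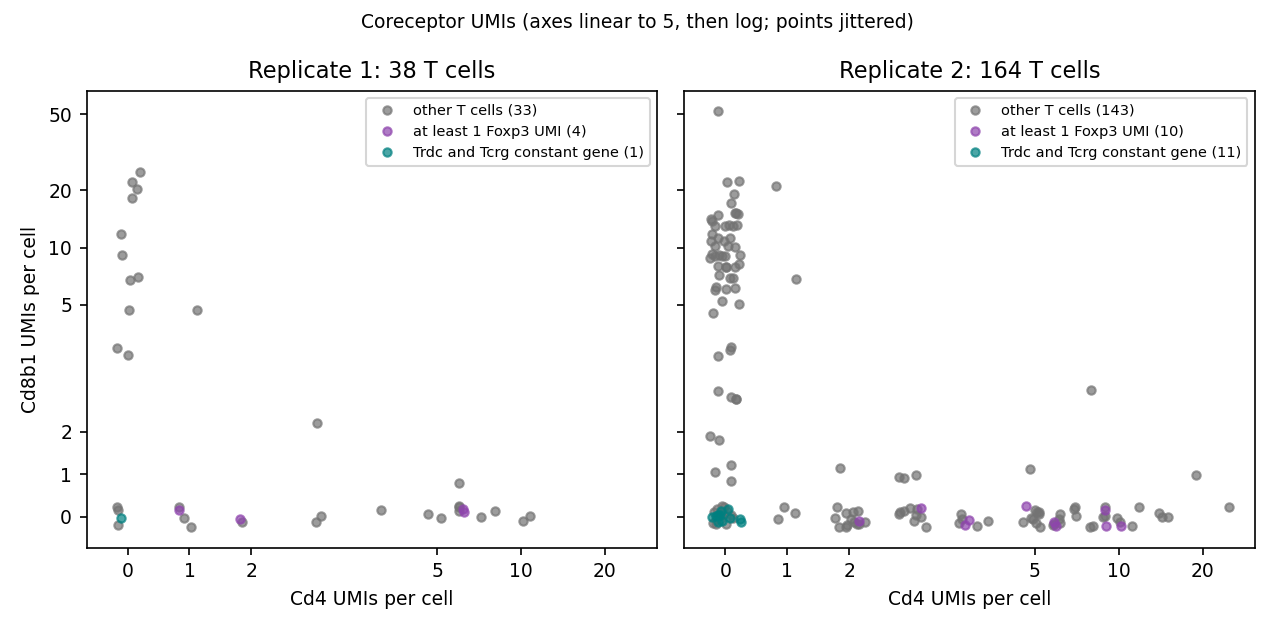
Cd4 against Cd8b1 UMIs of each T cell in replicates 1 and 2, jittered by up to 0.25, with cells that held Foxp3 or Trdc and a Tcrg constant gene in colour. Cells lay along either axis with few between, Foxp3 cells lay on the Cd4 axis and Trdc cells at the origin.

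CD8 cells differed from CD4 cells in cytotoxic and lineage genes. Of 5011 genes tested, with Cd4, Cd8a and Cd8b1 left out, 64 (1.28%) passed, 38 (0.758%) higher and 26 (0.519%) lower in CD8 cells. With the replicate as a block 102 passed, DESeq2 called 34 and the stricter gate (at least 4 UMIs each) 16. In replicate 1 a single cell gave 28.7% of the UMIs of the 11 CD8 cells. In replicate 2, 3 of the 58 CD8 cells held over 25000 UMIs, and the deepest gave 8.09% of the sum. All 3 held both Mki67 and Top2a, genes of cycling cells. The deepest CD4 cell held 16508 UMIs. With equal weight per cell 49 genes passed.

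Of 8 tested CD8 lineage genes other than the coreceptors, 6 were higher in CD8 cells and 0 lower, beside 0.758% and 0.519% of all genes tested. Eomes, a T-box factor of memory CD8 cells, was at 364 and 372 CPM in CD8 cells and had 0 UMIs in CD4 cells, at least 69.6-fold higher, and was found in 6 of 11 and 20 of 58 CD8 cells. Nkg7 was at 279 and 626 CPM against 17.2 and 17.9, a log2 difference of 4.78 (SE 0.51, adjusted p = 0.000167). Ccl5 was at 1338 and 3303 CPM against 17.2 and 141, but only 4 of 11 and 26 of 58 CD8 cells held it. Crtam, an adhesion receptor of activated cytotoxic cells, and Ctsw, cathepsin W of cytotoxic cells, also rose, Ctsw at 186 and 176 CPM against 8.61 and 20.1. Runx3, which directs the CD8 lineage, was at 229 and 229 CPM against 94.7 and 103 and did not pass (1.26, SE 0.36, adjusted p = 0.118).

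Ly6c2, which encodes a surface antigen of memory CD8 cells and monocytes, had the largest log2 difference of the 64 genes. It was at 1135 and 1265 CPM in CD8 cells, in 8 of 11 and 38 of 58 of them, with 0 UMIs in CD4 cells, at least 233-fold higher. Its neighbour Ly6c1 went the other way, at 172 and 103 CPM in CD4 cells against 0 and 2.07, but the 2 genes are near-identical copies, so reads between them are uncertain. Xcl1, the chemokine that draws XCR1-bearing dendritic cells, was at 186 and 359.7 CPM against 0 and 4.47, a log2 difference of 6.26 (SE 0.68, adjusted p = 0.000167). Its sum came from a minority of CD8 cells, as Xcl1 was in 4 of 11 and 5 of 58 of them. Gzma, granzyme A, was at 76.2 and 606 CPM against 0 and 8.95 and came from 2 and 7 CD8 cells.

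On the CD4 side 3 of 6 tested lineage genes were higher in CD4 cells and 0 lower, beside 0.519% and 0.758% of all genes tested. Zbtb7b, the factor that directs CD4 fate, was at 86.1 and 136 CPM in CD4 cells against 8.47 and 6.20, a log2 difference of -3.97 for CD8 minus CD4 (SE 0.67, adjusted p = 0.00649). Cd40lg was at 94.7 and 121 CPM against 0 and 6.20. Maf was at 344 and 412 CPM against 0 and 35.1, and Igfbp4 at 697 and 275 against 16.9 and 80.6. Il6ra was higher at 353 and 541 CPM against 178 and 159. DESeq2 did not call Zbtb7b, Cd40lg, Maf, Igfbp4, Il6ra or Gzma.

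Of 14 naive genes, Igfbp4 was lower in CD8 cells and no other passed. Lef1 was at 398 and 496 CPM in CD8 cells against 826 and 575 in CD4 cells (-0.53, SE 0.26, adjusted p = 0.425), without overlap. Tcf7 was at 847 and 709 CPM against 861 and 1034 (-0.24, SE 0.21), without overlap. Il7r (0.15, SE 0.20) and Ccr7 (0.02, SE 0.37) had ranges that overlapped between the classes. With SEs of this size, a gene that did not pass is not shown to be equal between the classes.

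**Figure D3:**
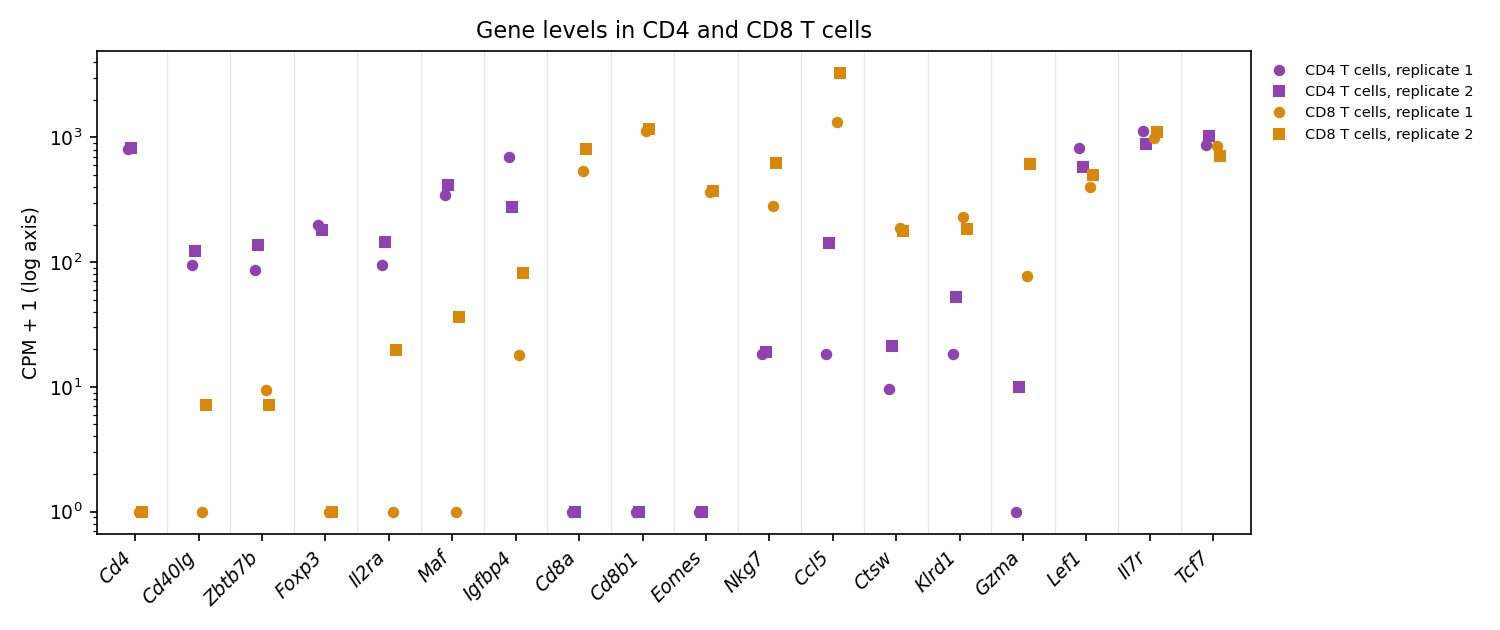
Summed level (CPM + 1, log axis) of 18 genes in CD4 and CD8 T cells, with 1 point per replicate and 0 drawn at 1. Cd4, Cd8a and Cd8b1 chose the cells, Foxp3 and Eomes were at 0 in the opposite class, and Lef1, Il7r and Tcf7 did not pass the test.

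Foxp3, the factor of regulatory T cells, was found in 4 of 38 and 10 of 164 T cells. All 14 were CD4 cells, 4 of 20 (20%, 5.73 to 43.7) in replicate 1 and 10 of 66 (15.2%, 7.51 to 26.1) in replicate 2. In CD8 cells it was in 0 of 11 and 0 of 58 cells. A floor of 3 counts puts the share of CD8 cells with a UMI at up to 27.3% and 5.17%, and the exact 95% interval reaches 28.5% and 6.16%. In B cells it was in 0 of 62 and 1 of 166 cells. Summed, Foxp3 was at 198 and 181 CPM in CD4 cells, at least 37.0-fold higher than in CD8 cells.

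Other genes of the regulatory list are given as counts of Foxp3 cells against counts of the remaining CD4 cells, with no test. Il2ra, the high-affinity IL-2 receptor chain, was in 3 of 4 and 7 of 10 Foxp3 cells against 1 of 16 and 3 of 56. Ikzf2, the factor Helios, was in 3 of 4 and 8 of 10 against 1 of 16 and 9 of 56. Ctla4, an inhibitory receptor, was in 4 of 4 and 9 of 10 against 8 of 16 and 41 of 56, with levels of 711 and 597 CPM against 130.0 and 234. Tnfrsf4, the receptor OX40, was in 2 of 4 and 5 of 10 against 0 of 16 and 4 of 56, and Capg in 1 of 4 and 7 of 10 against 2 of 16 and 5 of 56. Il7r was in 5 of 10 Foxp3 cells against 48 of 56 in replicate 2, and in 4 of 4 against 11 of 16 in replicate 1. Over all CD4 cells against CD8 cells, 3 of 12 tested regulatory genes passed, Foxp3, Il2ra and Izumo1r, beside 1.28% of all genes tested.

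Trdc, the constant region of the delta chain, with a UMI of a Tcrg constant gene was found in 1 of 38 (2.63%, 0.0666 to 13.8) and 11 of 164 (6.71%, 3.40 to 11.7) T cells. All of these lacked both coreceptors, and made 1 of 3 and 11 of 24 of the cells without a coreceptor. They held 23 Trdc UMIs in replicate 1 and 5 to 31, with a median of 10, in replicate 2. Trac was at 0 in 1 of 1 and 8 of 11 of them, and they passed the gate through Trbc2. The gate lost 0 cells in either replicate that met the Cd3e limit with Trdc and a Tcrg constant gene but had under 2 Trac plus Trbc2 UMIs. In B cells Trdc was in 0 of 62 and 1 of 166 cells, whereas 29.2% and 34.6% of NK cells held it. Tcrg-C1, Tcrg-C2 and Tcrg-C4 are close copies, so their separate values are uncertain.

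The 11 Trdc cells of replicate 2 carried genes of the innate-like list. Blk, a kinase of gamma delta T cells and B cells, was in 6 of 11 and in 0 of the 153 other T cells. Sox13, a factor of the gamma delta lineage, was in 5 of 11 against 0 of 153, and Il23r, the IL-23 receptor, in 4 of 11 against 0 of 153. Cxcr6 was in 9 of 11 against 31 of 153, and Id2 in 11 of 11 against 80 of 153. Ccr7 was in 0 of 11 against 65 of 153. The single Trdc cell of replicate 1 held none of Blk, Sox13 and Il23r, and held Ccl5 at 3688 CPM, while 1 of 11 in replicate 2 held Ccl5. Klrb1c and Zbtb16, genes of NKT cells, were in 0 and 8 and in 1 and 6 of the T cells without Trdc and Tcrg. Over all T cells Zbtb16 was in 2 of 38 and 10 of 164. The single Trdc cell of replicate 1 and some of the 11 of replicate 2 thus held Zbtb16 too.

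**Figure D4:**
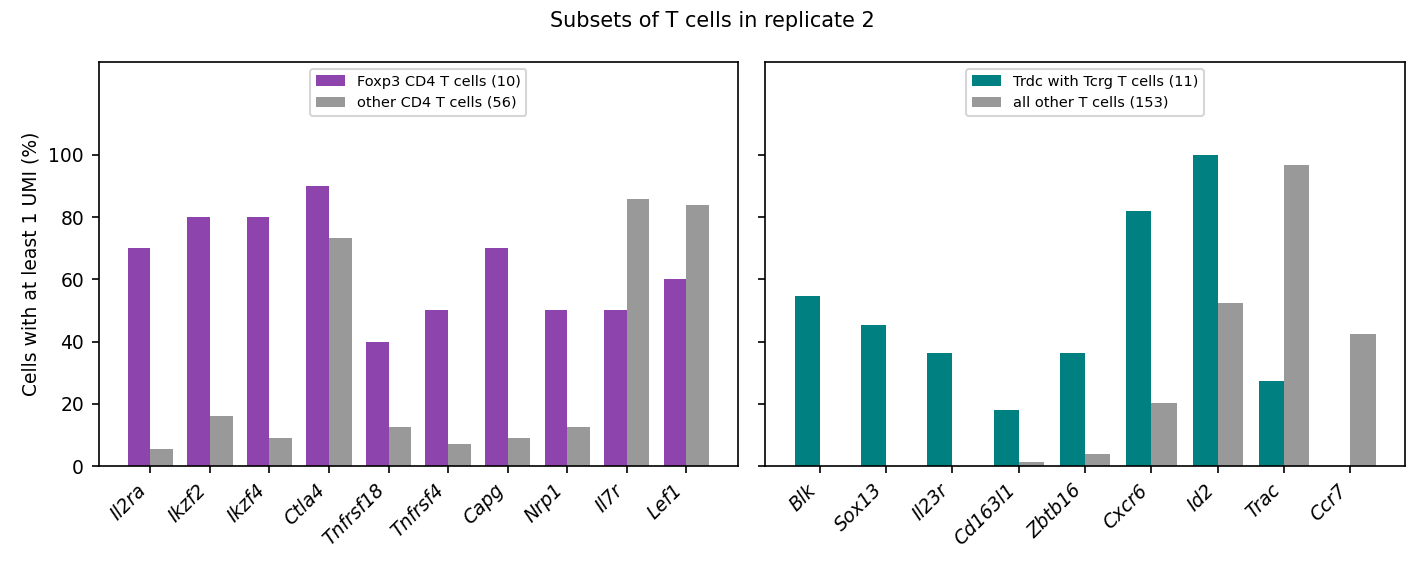
Share of cells with at least 1 UMI in replicate 2, for Foxp3 CD4 cells (10) against other CD4 cells (56) and for cells with Trdc and a Tcrg constant gene (11) against all other T cells (153). Il2ra was in 7 of 10 against 3 of 56 cells, and Blk, Sox13 and Il23r were in no other T cell.

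Transcripts of dividing cells and of cytokines were counted per cell. Mki67 and Top2a, genes of cycling cells, were found together in 0 of 38 T cells, for which 3 counts come to 7.89% and the exact 95% interval reaches 9.25%, and in 9 of 164 (5.49%, 2.54 to 10.2). Of these 9, 2 were CD4 and 5 CD8 cells. In B cells the pair was in 5 of 62 (8.06%, 2.67 to 17.8) and 6 of 166 (3.61%, 1.34 to 7.70), with intervals that overlapped those of T cells. In all other cells, which were deeper, it was in 9.66% (8.67 to 10.7) and 12.4% (11.2 to 13.6), and in replicate 2 this interval did not overlap that of T cells. Cytokine transcripts were sparse, with Ifng in 1 of 38 and 19 of 164 T cells, Il2 in 1 and 7, Il4 in 0 and 2 and Il21 in 0 and 0. For comparison Ifng was in 0 of 62 and 0 of 166 B cells, and Il2 in 1 and 2 of them.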

How the data were processed

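Splenic cells of 2 samples, labelled as wild-type CD11c+ spleen cells, were captured in 1 BD Rhapsody run. Tags in that run also mark further mice, not analysed here. The deposited tables hold UMI counts per gene and cell, for which the authors ran version 1.12.1 of the BD Rhapsody WTA pipeline (GRCm38 with PhiX, GENCODE vM19, intronic reads counted, UMIs corrected), without normalization. The submitters' processing notes also list R 4.2.3 and Seurat 4.3.0.1. Each table held 27032 genes, with 4.69534e+07 UMIs in replicate 1 and 4.31377e+07 in replicate 2. Counting intronic reads raises genes with long introns, and UMI counts carry no gene length, so levels were not compared between genes.

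T cells, B cells and NK cells were gated on UMIs, and the members and gene lists were chosen with earlier results of these data known. UMIs were summed per sample and cell group and tested with edgeR 4.0.16 in R 4.3.3 (quasi-likelihood test, TMM, filterByExpr, Benjamini-Hochberg over all genes tested, threshold 0.05), without a replicate block, leaving out the genes that chose the groups. SE is the log2 difference over the root of F. Beside 24 gene lists, the 8 genes with the largest difference in each direction, called, of 1 sign in both replicates and at 50 CPM or more in the group where they were higher, could be named. Mki67, Top2a and the genes that set groups were outside this rule, the first pair chosen with the data in view. Tests were checked on simulated counts. Each sample gave both groups of every comparison, so the replicates are paired by origin. Deviations of same-numbered sums correlated at 0.0997 against all other cells, 0.0537 against B cells, -0.0379 against NK cells and 0.0899 for CD8 against CD4. Intervals are exact binomial (Clopper-Pearson) at 95%, and no doublets were removed. DESeq2 1.42.0, Scrublet in scanpy 1.11.5, Python 3.11.15, pandas 2.3.3, scipy 1.17.1 and matplotlib 3.10.9 served the alternatives, tables and figures. Positions are from GENCODE M21 on GRCm38. A planned division of T cells into naive-type and other cells is not reported here.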

Additional observations from a re-analysis of the deposited data

How the results depend on the processing

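Of 1891 alternative values of 182 results for named genes, 1620 counted as the same, 57 lost and 2 gained significance. A further 11 changed sign, and 201 single-replicate values moved by more than the spread. A value from a test counted as the same if it kept direction and side of the threshold. Single-replicate values have no p-value, and 98 without replicate 1 and 65 without replicate 2 counted as the same by staying within the spread. Their changes of sign were counted only for genes that had passed the threshold. The cause of each change was not tested unless stated. Equal weight per cell was chosen after seeing the data.

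Against all other cells and against NK cells, counts of called genes stayed within 1.5 times of the main count under every alternative run. Against B cells DESeq2 called 812 genes in place of 1371. For CD8 against CD4 cells, in place of 64, DESeq2 called 34, cells within 3 deviations gave 20 and the stricter gate 16. At least 2 coreceptor UMIs, with Cd8a and Cd8b1 summed, gave 30, no filter on low counts 149 and the replicate block 102. In paired fits with the replicate block, no call of a named gene was lost and 1 was gained.

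Log2 differences that changed sign were those of Itgb1 against all other cells with equal weight (0.19), Runx1 there with no filter (-0.0171) and the stricter gate (-0.17), Itgax against B cells with DESeq2 (-0.00103) and without the antigen presentation cells (-0.21), Ltb against B cells with the stricter gate (-0.00109), Ccr7 against B cells within 3 deviations (-0.00115), Zap70 against NK cells with equal weight (-0.31), Trbc1 against NK cells with the stricter gate (-0.11), and Ccr7 in CD8 against CD4 cells with DESeq2 (-0.00941) and within 3 deviations (-0.0862). None of these had passed the threshold, and single-replicate values of genes that had not passed are not in this list.

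Dendritic cell genes took 0.228% of T cell UMIs on average and 0.123% as the median over cells. With either replicate left out, the T cell share ran from 1.15% to 5.32%, the CD4 share from 40.2% to 52.6%, the CD8 share from 28.9% to 35.4% and the dendritic cell gene share from 0.180% to 0.276%. No test can leave out a replicate, since 1 sample a group remains. The 38 T cells of replicate 1 limit every estimate there.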
